A study of Mus musculus with 24 samples.

Results

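The genes of the cytosolic HSP70 chaperones and of their HSP110 relatives were followed in quadriceps femoris muscle of 24 mice. The 9 genes Hspa1a, Hspa1b, Hspa1l, Hspa2, Hspa4, Hspa4l, Hspa8, Hspa14 and Hsph1 were chosen by symbol as the inducible and the constitutive members of these 2 classes. Of the 9 genes, 8 are rows of the deposited count table of 18669 genes and the level of Hspa2 was not analysed here. All 8 passed the filter on low counts.

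HSP70 proteins hold unfolded stretches of other proteins and release them when ATP is exchanged. J-domain proteins deliver the clients and start the hydrolysis of ATP, and nucleotide exchange factors, among them the HSP110 proteins encoded by Hsph1, Hspa4 and Hspa4l, reset the cycle. Hspa8 encodes HSC70, the constitutive cytosolic member, whereas Hspa1a and Hspa1b encode the inducible HSP70 and are classical targets of HSF1, the transcription factor that binds heat shock elements and is kept inactive in part by HSP90. Muscle is rich in contractile proteins that depend on chaperones for folding and turnover.

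Each of 12 groups held 2 mice, and RNA was taken 4 h after treatment. Wild type, R6/2 and Hsf1-/- mice, all labelled as CBA x C57BL/6 F1, received HS (anaesthesia, body wrapped in a heating pad, core temperature held at 41.5 °C for 15 min), its control (36.9 °C for 21 min), 12 mg/kg HSP990 by gavage, or vehicle. HSP990 is an inhibitor of HSP90, and the labels give saline as the vehicle but methyl cellulose in saline as the carrier of the drug. R6/2 mice carry a transgene with the start of the human huntingtin gene and an expanded CAG repeat, driven by the human promoter, and are a model of Huntington's disease. Hsf1-/- mice are homozygous for a disrupted Hsf1 gene. Wild type and R6/2 mice were 12 weeks old in both experiments, while Hsf1-/- mice were 10 weeks old for HS and 8 weeks old for HSP990, so that genotype and age cannot be told apart in any comparison of Hsf1-/- with the other genotypes.

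Libraries held 22450000 to 46600000 counts (median 29840000). The unit of level is the CPM, a read count relative to the library's total after TMM correction, which is a scaling that sets the bulk of genes equal between libraries. A gene was taken to have changed where the Benjamini-Hochberg adjusted p of edgeR's quasi-likelihood test, fitted to all 24 libraries and 13754 genes, was below 0.05, and every adjusted p below comes from that fit unless another is named. With 2 mice a side the smallest p of an exact permutation test (two-sided) is 0.333, and the fit therefore leans on the spread pooled over the 12 groups. Hsf1 itself was lower in the knockout but not absent, at 21.1 to 29.0 CPM (median 27.5) in the 8 Hsf1-/- libraries against 45.3 to 53.7 CPM in the 8 R6/2 and 52.9 to 68.6 CPM in the 8 wild type libraries, and the position of these reads relative to the disrupted part of the gene was not analysed here. Summed CPM of 8 markers of skeletal muscle fibres was 58480 to 109500 in R6/2 mice and 220400 to 310300 in the other genotypes, and the TMM factors were 1.19 to 1.395 and 0.8079 to 0.954. Less RNA of a kind per fibre and fewer fibres cannot be told apart in whole muscle. Markers of leukocytes (17.9 to 38.6 summed CPM), endothelium (347 to 605), adipocytes (26.6 to 488), fibroblasts (421 to 881), erythroid cells (2.30 to 26.7), Schwann cells (102 to 231) and satellite cells (4.09 to 11.6) were present at lower levels. The HS experiment held 0 counts of 4 Y-linked genes in wild type mice, 0 to 4 in R6/2 and 4781 to 5365 in Hsf1-/- mice, and the HSP990 experiment 3916 to 9392 in every genotype. Y-linked expression therefore differed along with genotype in the HS comparison of Hsf1-/- with wild type or R6/2 mice, and along with treatment where the HS and HSP990 experiments are set against each other in wild type or R6/2 mice. Its part in those differences cannot be told apart.

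HSF1 is known to bind upstream of inducible chaperone genes. The starts of Hspa1a, Hspa1b and Hsph1 are shown because their windows held a match in the search described next. RefSeq windows of 250 bases before to 50 after the start site (GRCm38.p6) were searched for GAANNTTC and TTCNNGAA, the head-to-head and tail-to-tail pairs of the unit that HSF1 binds (each reads the same on both strands), for 3 units in a row (GAANNTTCNNGAA or TTCNNGAANNTTC, which contain the pairs), and for TATAAA and CCAAT on both strands. The 250 bases upstream follow 5′ to 3′ on the strand of the gene, with matches to a pair in capitals.
Hspa1a (chr17:34972157-34972406, minus strand): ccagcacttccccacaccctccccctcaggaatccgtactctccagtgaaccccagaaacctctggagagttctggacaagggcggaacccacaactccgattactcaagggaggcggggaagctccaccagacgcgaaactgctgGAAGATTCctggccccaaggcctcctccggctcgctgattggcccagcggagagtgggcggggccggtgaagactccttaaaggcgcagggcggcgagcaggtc
Hspa1b (chr17:34959239-34959488, minus strand): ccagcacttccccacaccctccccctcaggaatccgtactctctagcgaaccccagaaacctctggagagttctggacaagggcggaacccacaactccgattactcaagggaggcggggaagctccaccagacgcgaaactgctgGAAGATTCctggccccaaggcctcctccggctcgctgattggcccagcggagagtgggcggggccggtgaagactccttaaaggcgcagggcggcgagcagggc
Hsph1 (chr5:149636337-149636586, minus strand): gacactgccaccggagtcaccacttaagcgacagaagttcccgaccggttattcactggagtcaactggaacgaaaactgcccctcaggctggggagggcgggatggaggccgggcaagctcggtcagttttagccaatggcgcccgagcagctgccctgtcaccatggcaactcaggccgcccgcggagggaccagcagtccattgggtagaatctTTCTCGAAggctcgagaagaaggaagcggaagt
Hspa1a and Hspa1b differed at 3 of 250 positions and both held GAAGATTC from position -104. Hsph1 held TTCTCGAA from position -33 and, behind its start site, 3 units in a row (TTCTGGAAAGTTC) from position 37. Counted from another RefSeq start site of Hsph1, the same matches begin at positions -54 and 16. By comparison, GAANNTTC was in 7.86% of all 32851 RefSeq windows, TTCNNGAA in 8.52% and a run of 3 units in 0.603%. No pair was found in the windows of Hspa1l, Hspa2, Hspa4, Hspa4l or Hspa14, which says only that these letters are not within those bases. Of these genes, Hspa1l and Hspa4l also rose after HS and after HSP990 in wild type mice. CCAAT, found in 37.4% of all windows, was in those of Hspa1a, Hspa1b, Hspa1l, Hspa2, Hspa14 and Hsph1, and TATAAA, found in 13.6%, was in none of the members' windows searched. Hspa8 was not searched.

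Hspa1a (Entrez Gene 193740), Hspa1b (15511) and Hspa1l (15482) lie side by side on chromosome 17. In the mm9 annotation (NCBIM37) Hspa1b spans 35093381 to 35096183 and Hspa1a 35106144 to 35109069, both as single exons on the minus strand with 9960 bases between them. Hspa1l, expressed mainly in testis, spans 35109648 to 35116229 on the plus strand, and its start site lies 578 bases from that of Hspa1a, in the opposite direction. Reads were 40 bases long, and of the 40-base windows of the transcript that occur in the genome 65.2% of Hspa1a and 68.7% of Hspa1b occur more than once, against 11.9% of Hspa1l. Hspa1a shares 40.04% of its windows with Hspa1b, so the split of reads between these genes is uncertain and their sum was also tested. Hspa1a also overlaps Gm20481 and Hspa1l overlaps Gm10501 on the other strand.

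The inducible genes were low in wild type controls and rose by more than any other member after either treatment in wild type mice. Hspa1a was at 3.37 and 11.1 CPM in wild type controls and at 961 and 1063 CPM after HS. Hspa1b was at 1.84 and 4.89 CPM in controls and at 853 and 858 CPM after HS. The treated mice were far above the controls and lay within 1.11-fold of each other, while the low control values differed up to 3.29-fold between mice. Hspa1a rose 138-fold (log2 7.11 ± 0.63 SE, adjusted p = 7.6e-06) and Hspa1b 250-fold (log2 7.97 ± 0.595 SE, adjusted p = 1.2e-06). After HSP990 Hspa1a was at 2777 and 2950 CPM against 16.2 and 28.6 CPM with vehicle, and Hspa1b at 2787 and 3161 CPM against 16.0 and 21.4 CPM. Both genes reached their highest level of all groups here, with log2 fold changes of 7 ± 0.62 (SE) for Hspa1a and 7.31 ± 0.566 for Hspa1b (adjusted p = 2.8e-06 and 7.8e-07). Although the levels were higher after HSP990 than after HS, so were those with vehicle compared with control, and the HS and HSP990 fold changes of these genes differed by 0.11 (95% interval -1.36 to 1.58) and 0.65 (-0.72 to 2.02) on the log2 scale, which did not pass the test (adjusted p = 0.97 and 0.70).

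In R6/2 mice the inducible genes rose after HS to a lower level than in wild type mice. Hspa1a was at 3.90 and 11.7 CPM in R6/2 controls and at 119 and 158 CPM after HS, and Hspa1b at 2.00 and 8.94 against 107 and 124 CPM. Treated R6/2 mice were above all untreated mice but below every HS-treated wild type mouse. The rise was 17.7-fold for Hspa1a (log2 4.15 ± 0.549 SE, adjusted p = 0.0043) and 20.9-fold for Hspa1b (log2 4.39 ± 0.502, adjusted p = 0.0011). The call of Hspa1a was lost without R6/2 control replicate 2 (log2 3.57, adjusted p = 0.07). Relative to wild type the log2 response was lower by -2.97 (95% interval -4.48 to -1.45) for Hspa1a and -3.58 (-4.99 to -2.17) for Hspa1b, which did not pass after adjustment over all genes (adjusted p = 0.28 and 0.059). For Hspa1b it passed with DESeq2 (adjusted p = 0.00046), and without R6/2 control replicate 2 the log2 difference was -4.28. With the reads of both genes summed the difference was -3.2 and did not pass edgeR's test (adjusted p = 0.19).

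After HSP990 the fold changes of R6/2 mice were closer to those of wild type mice than after HS, but the treated levels stayed lower. Hspa1a was at 573 and 725 CPM against 5.37 and 11.6 CPM with vehicle, and Hspa1b at 739 and 932 CPM against 4.78 and 8.46 CPM. These are 76.4-fold (log2 6.26 ± 0.602 SE, adjusted p = 2.2e-05) and 126-fold (log2 6.97 ± 0.56, adjusted p = 2.7e-06) rises. HSP990-treated wild type mice were higher, at 2777 and 2950 CPM for Hspa1a and 2787 and 3161 CPM for Hspa1b. With TMM scaling, vehicle-treated wild type mice were higher too, at 16.2 and 28.6 CPM and at 16.0 and 21.4 CPM. Levels of Hspa1b after HSP990 in R6/2 mice overlapped those after HS in wild type mice, whereas Hspa1a stayed below them. That order depended on scaling. By library size only, without TMM correction, Hspa1a overlapped (718.2 and 999.5 CPM against 776.3 and 899.4 CPM in HS-treated wild type mice). Hspa1b was then above (925.8 and 1285 CPM against 689.2 and 725.7 CPM). The HSP990 response of R6/2 mice differed from that of wild type mice by -0.75 (95% interval -2.20 to 0.71) for Hspa1a and -0.34 (-1.66 to 0.98) for Hspa1b on the log2 scale, and neither difference passed (adjusted p = 0.86 and 0.94). Both intervals hold a weaker as well as an equal response. Within R6/2 mice the HS response was lower than the HSP990 response by -2.59 (-3.94 to -1.24) on the log2 scale for Hspa1b (adjusted p = 0.051) and by -2.11 (-3.58 to -0.63) for Hspa1a (adjusted p = 0.19). The former passed with DESeq2 (adjusted p = 0.012), and it was -3.29 without R6/2 control replicate 2 and -3.06 without R6/2 vehicle replicate 1. With the reads of both genes summed the difference was -2.36 and did not pass edgeR's test (adjusted p = 0.12). The ratio of Hspa1a to Hspa1b reads was 1.12 to 1.27 in the R6/2 mice after HS and 0.776 to 0.778 after HSP990, and in wild type mice 1.13 to 1.24 and 0.933 to 0.996.

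Neither inducible gene rose in Hsf1-/- mice. Hspa1a was at 2.13 and 3.34 CPM in controls and 1.91 and 3.00 CPM after HS, and at 3.36 and 3.77 CPM with vehicle and 4.93 and 9.15 CPM after HSP990. Hspa1b stayed between 0.914 and 4.14 CPM in all 8 Hsf1-/- libraries. The groups overlapped except for Hspa1a after HSP990, where both treated mice were above both vehicle mice, with a log2 fold change of 0.96 ± 0.562 (SE) that did not pass (adjusted p = 0.64). Relative to wild type the log2 response of Hspa1a was lower by -7.28 after HS (adjusted p = 0.00042) and by -6.04 after HSP990 (adjusted p = 0.00051), and that of Hspa1b by -8.18 (adjusted p = 0.00036) and -7.27 (adjusted p = 4.8e-05). R6/2 mice responded to HSP990 more than Hsf1-/- mice by 5.30 for Hspa1a and 6.93 for Hspa1b on the log2 scale (adjusted p = 0.0032 and 0.00011). With reads of both genes summed, the log2 fold changes were 7.45 (wild type HS), 4.26 (R6/2 HS), 7.15 (wild type HSP990) and 6.62 (R6/2 HSP990), and no call of a treatment comparison changed. In order of level, Hspa1a was highest in HSP990-treated wild type mice, then HS-treated wild type, HSP990-treated R6/2, HS-treated R6/2 and vehicle-treated wild type mice, each apart from the next. Hspa1b had the same order, with HS-treated wild type and HSP990-treated R6/2 mice overlapping, and most neighbours among the remaining groups overlapped for both genes. These orders are those of TMM-scaled CPM. By library size only, HSP990-treated R6/2 mice stood differently against HS-treated wild type mice, as given above.

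**Figure D1:**
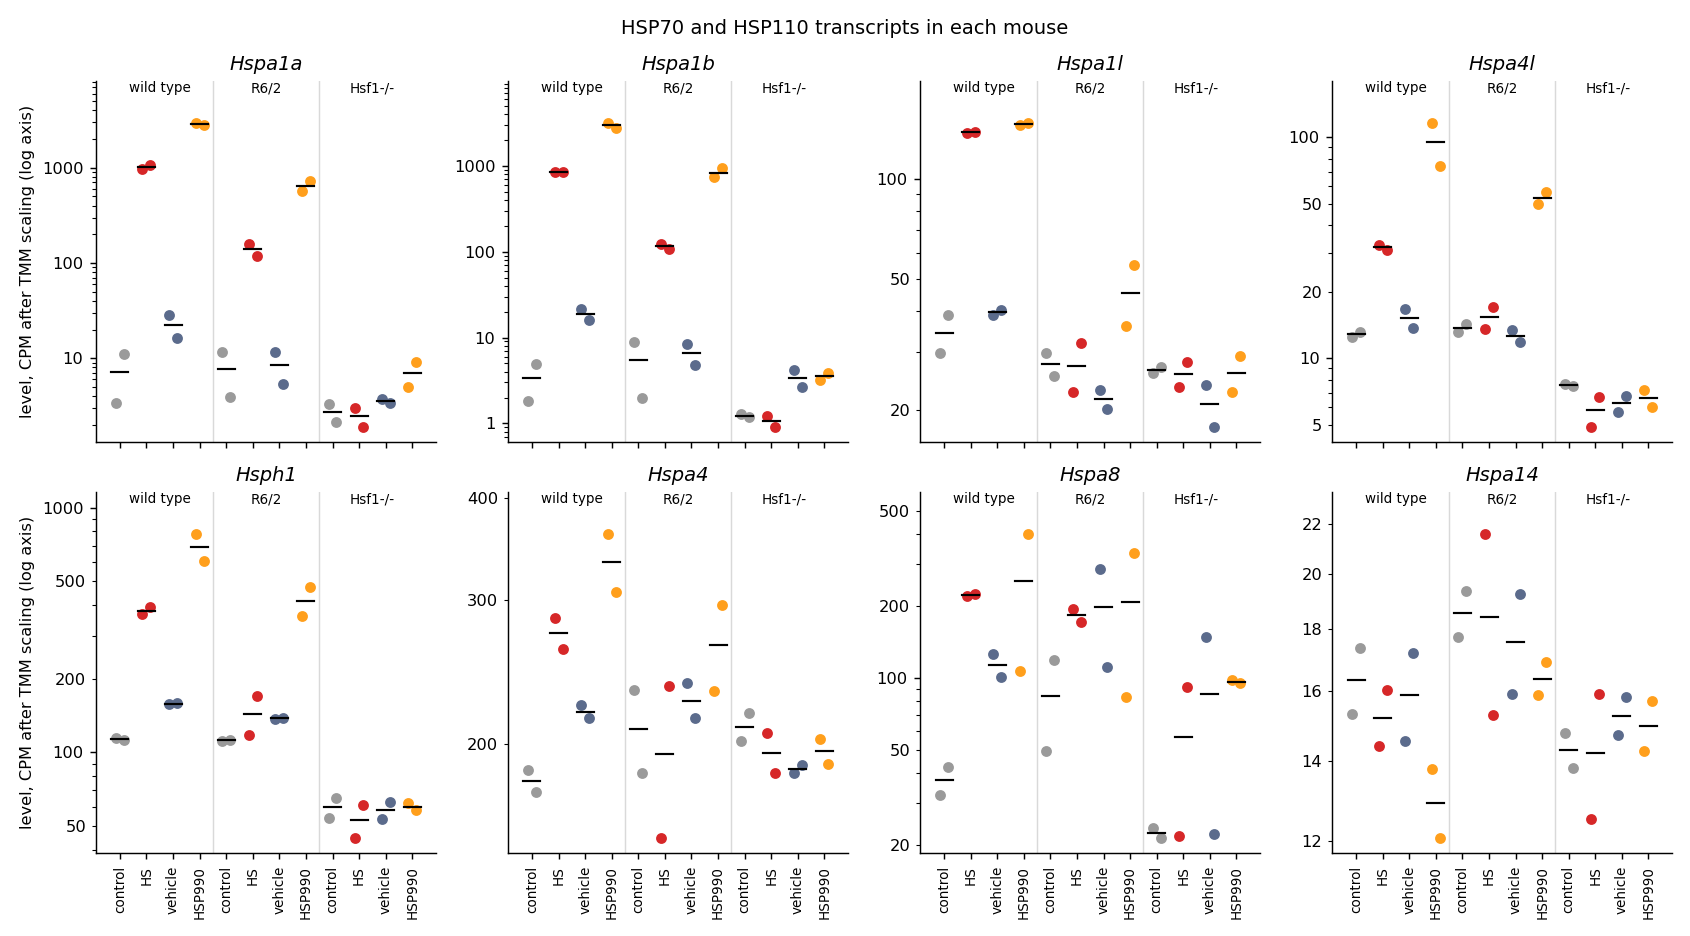
Level of each gene in each mouse (CPM after TMM scaling, log axis with its own range per gene), with the 4 treatments of each genotype side by side and a bar at the mean of 2 mice. Hspa1a and Hspa1b span 1.91 to 2950 and 0.914 to 3161 CPM, Hspa14 only 12.1 to 21.6 CPM, and the mice of 1 group lie far apart for Hspa8.

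Hspa1l rose about 4-fold in wild type mice and ended near the same level after both treatments. It was at 29.7 and 38.7 CPM in wild type controls and at 138 and 139 CPM after HS, and at 39.0 and 40.3 CPM with vehicle and 146 and 148 CPM after HSP990. Treated and untreated wild type mice did not overlap, and the log2 fold changes were 2.02 ± 0.214 (SE) and 1.89 ± 0.213 (adjusted p = 4.9e-05 and 5.2e-05). In R6/2 mice Hspa1l was at 22.8 and 31.9 CPM after HS and 25.5 and 29.8 CPM in controls, groups that overlapped, and the log2 change was -0.02 (95% interval -0.46 to 0.42). It rose in R6/2 mice after HSP990, from 20.3 and 23.1 CPM to 35.9 and 54.9 CPM (log2 1.07 ± 0.209 SE, adjusted p = 0.014), a call lost without R6/2 HSP990 replicate 2 (log2 0.73, adjusted p = 0.19) or vehicle replicate 2 (log2 0.98, adjusted p = 0.19). The R6/2 call after HSP990 was also lost in a fit of the compared groups alone (adjusted p = 0.21) and with the replicate number as a block (0.096). In Hsf1-/- mice Hspa1l stayed between 17.9 and 29.1 CPM in all 8 libraries.

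Hspa1l was also the single member whose HS response passed the test of a difference between R6/2 and wild type mice, by -2.03 ± 0.296 (SE) on the log2 scale (adjusted p = 0.0094). That call was lost without R6/2 HS replicate 1 (adjusted p = 0.079), R6/2 control replicate 1 (0.066) or wild type control replicate 1 (0.086), with log2 differences of -1.92 to -1.81, and in a fit of the compared groups alone (adjusted p = 0.099). In Hsf1-/- minus wild type mice the response of Hspa1l differed by -2.05 for HS and by -1.58 for HSP990 (adjusted p = 0.0039 and 0.019). The HS difference was lost without wild type control replicate 1 (adjusted p = 0.053), and the HSP990 difference when any single mouse was left out other than replicate 2 of the Hsf1-/- vehicle and HSP990 groups (adjusted p up to 0.13). The HSP990 difference was also lost in a fit of the compared groups alone (adjusted p = 0.091) and with the replicate number as a block (0.17). That block also ended the HS calls of R6/2 minus wild type (0.16) and of Hsf1-/- minus wild type (0.082). For each 100 CPM by which Hspa1a and Hspa1b together rose, Hspa1l rose by 5.62 CPM after HS and 1.85 CPM after HSP990 in wild type mice, by 1.61 CPM after HSP990 in R6/2 mice, and changed by -0.131 CPM after HS in R6/2 mice. Hspa1l shares 7.90% of its windows with Hspa1a, and the part of shared reads in its change was not tested.

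The HSP110 gene Hsph1 (Entrez Gene 15505, chromosome 5, 150416862 to 150438951, minus strand, 18 exons) rose after both treatments in wild type mice. It was at 113 and 114 CPM in controls and 367 and 391 CPM after HS, and at 157 and 159 CPM with vehicle and 605 and 779 CPM after HSP990. The groups did not overlap, and the log2 fold changes were 1.74 ± 0.186 (SE, adjusted p = 5e-05) and 2.13 ± 0.188 (adjusted p = 2.8e-06). In R6/2 mice Hsph1 was at 118 and 169 CPM after HS against 111 and 113 CPM in controls, higher in both treated mice, but the log2 change of 0.36 (95% interval -0.02 to 0.74) did not pass. After HSP990 it rose in R6/2 mice from 137 and 139 CPM to 360 and 475 CPM (log2 1.60 ± 0.185 SE, adjusted p = 0.00017), a level overlapping that of HS-treated wild type mice. A fit of the R6/2 vehicle and HSP990 groups alone did not call it (adjusted p = 0.067). By library size only, Hsph1 in HSP990-treated R6/2 mice was above that in HS-treated wild type mice (450.7 and 654.7 CPM against 296.2 and 331.2 CPM).

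Hspa4l (Entrez Gene 18415, chromosome 3, 40548417 to 40600025, plus strand, 19 exons), a second HSP110 gene known for its role in testis, was low and responded more to HSP990 than to HS. It was at 12.5 and 13.2 CPM in wild type controls, 30.9 and 32.7 CPM after HS, 13.7 and 16.8 CPM with vehicle, and 74.4 and 116 CPM after HSP990. The rise was 2.47-fold after HS (log2 1.31 ± 0.197 SE, adjusted p = 0.0017, lost without wild type control replicate 1 at 0.056) and 6.26-fold after HSP990 (log2 2.65 ± 0.203, adjusted p = 7.8e-07). In R6/2 mice it was at 13.6 and 17.1 CPM after HS against 13.2 and 14.3 CPM in controls, which overlapped (log2 0.16, 95% interval -0.25 to 0.57). HSP990 raised it in R6/2 mice from 11.9 and 13.4 CPM to 49.9 and 56.4 CPM (log2 2.07 ± 0.198, adjusted p = 2.2e-05), above the level in HS-treated wild type mice. In the order of levels of Hspa4l the HSP990-treated wild type, HSP990-treated R6/2 and HS-treated wild type mice stood apart from each other and from the rest. By library size only, HSP990-treated R6/2 mice (62.5 and 77.7 CPM) overlapped HSP990-treated wild type mice (66.2 and 103.7 CPM).

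The HS response of the HSP110 genes was lower than their HSP990 response in R6/2 mice, by -1.92 for Hspa4l (95% interval -2.50 to -1.34, adjusted p = 0.0019) and -1.24 for Hsph1 (-1.78 to -0.70, adjusted p = 0.016). The call of Hsph1 was lost without R6/2 HS replicate 1 (adjusted p = 0.085), or replicate 2 of R6/2 HSP990 (0.096), R6/2 control (0.072) or R6/2 vehicle (0.082), and in a fit of these groups alone (0.15). In wild type mice the difference was -1.34 for Hspa4l (-1.92 to -0.76, adjusted p = 0.015) and -0.39 for Hsph1 (-0.93 to 0.15, adjusted p = 0.52). The wild type call of Hspa4l was lost without wild type HS replicate 2 (0.069), HSP990 replicate 1 (log2 -0.985, 0.073), control replicate 2 (0.056) or vehicle replicate 2 (0.11). Across genotypes, the HS response of R6/2 minus wild type was -1.38 for Hsph1 (-1.92 to -0.84, adjusted p = 0.059) and -1.15 for Hspa4l (-1.73 to -0.57, adjusted p = 0.28), and with DESeq2 both passed (adjusted p = 0.00036 and 0.049). For HSP990 the same differences were -0.53 and -0.57, with intervals from -1.07 to 0.01 and from -1.15 to 0.00 (adjusted p = 0.71 and 0.70).

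Both of these HSP110 genes were below wild type in Hsf1-/- mice whatever the treatment. Hsph1 was at 44.7 to 65.4 CPM and Hspa4l at 4.90 to 7.68 CPM in all 8 Hsf1-/- libraries, below every library of the other genotypes. The response of Hsf1-/- minus wild type was -1.92 (HS) and -2.08 (HSP990) for Hsph1 (adjusted p = 0.0019 and 0.00035) and -1.69 and -2.57 for Hspa4l (adjusted p = 0.017 and 0.00011). The HS difference of Hspa4l no longer passed when any single mouse but Hsf1-/- HS replicate 2 was left out (adjusted p 0.064 to 0.16). R6/2 mice exceeded Hsf1-/- mice in the HSP990 response by 1.99 for Hspa4l (adjusted p = 0.0023) and 1.55 for Hsph1 (adjusted p = 0.0097). The latter was lost without replicate 2 of Hsf1-/- vehicle (0.075), R6/2 HSP990 (0.065) or R6/2 vehicle (0.053), in a fit of these groups alone (0.11), and with scaling by library size only (0.055).

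Hspa4 (Entrez Gene 15525, chromosome 11, 53073316 to 53113959, minus strand, 19 exons), the third HSP110 gene, was abundant in untreated muscle and moved little. It was at 175 and 186 CPM in wild type controls and 262 and 286 CPM after HS, and at 215 and 223 CPM with vehicle and 307 and 361 CPM after HSP990. Treated wild type mice were above untreated ones in both experiments, with log2 fold changes of 0.60 ± 0.17 (SE) and 0.61 ± 0.169 that did not pass (adjusted p = 0.084 and 0.082). DESeq2 called both (adjusted p = 0.027 and 0.032), and the fit of wild type control and HS mice alone called the first (adjusted p = 0.014). In R6/2 and Hsf1-/- mice Hspa4 was between 154 and 296 CPM, and its 4 treatment differences there lay between -0.10 and 0.22 on the log2 scale. In R6/2 minus wild type the HS response differed by -0.70 (95% interval -1.20 to -0.19, adjusted p = 0.94), and without R6/2 HS replicate 2 the difference was -1.04 and passed (adjusted p = 0.033).

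Hspa8 (Entrez Gene 15481, chromosome 9, 40609067 to 40613283, plus strand, 9 exons) varied more between the mice of 1 group than any other member. It was at 32.5 and 42.5 CPM in wild type controls and at 221 and 225 CPM after HS, a 5.95-fold difference with a wide interval (log2 2.57, 95% interval 0.77 to 4.38) that did not pass (adjusted p = 0.16). A fit of these 4 mice alone called it (adjusted p = 6.9e-05), as did DESeq2 (0.048). After HSP990 wild type mice were at 108 and 400 CPM against 101 and 126 CPM with vehicle, and R6/2 mice at 83.3 and 334 CPM against 111 and 287 CPM. The groups overlapped in both genotypes. The R6/2 mice were at 49.4 and 119 CPM in controls and 171 and 195 CPM after HS (log2 1.12, -0.59 to 2.84). In Hsf1-/- mice the levels were 21.5 and 23.7 CPM (control), 21.8 and 91.9 CPM (HS), 22.3 and 149 CPM (vehicle) and 95.2 and 98.8 CPM (HSP990).

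The difference between the 2 mice of a group in log2(CPM + 0.5) had a median of 0.82 over the 12 groups for Hspa8 and reached 2.72 in Hsf1-/- vehicle. The median over 11119 genes with a mean of at least 1 CPM was 0.18, and 98.8% of them had a smaller one than Hspa8. Hspa1a came next among the members with 0.544 (highest 1.58, in wild type controls), followed by Hspa1b with 0.303, while Hspa4 had 0.134 and Hsph1 0.169. Of the 40-base windows of the Hspa8 transcript that occur in the genome 83.1% occur more than once, at a median of 4 copies, and Snord14c, Snord14d and Snord14e lie within it on the same strand. The share of windows occurring more than once was 0% for Hspa4, Hspa14 and Hsph1 and 2.55% for Hspa4l. How far the placement of reads among copies took part in the spread of Hspa8 was not tested.

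**Figure D2:**
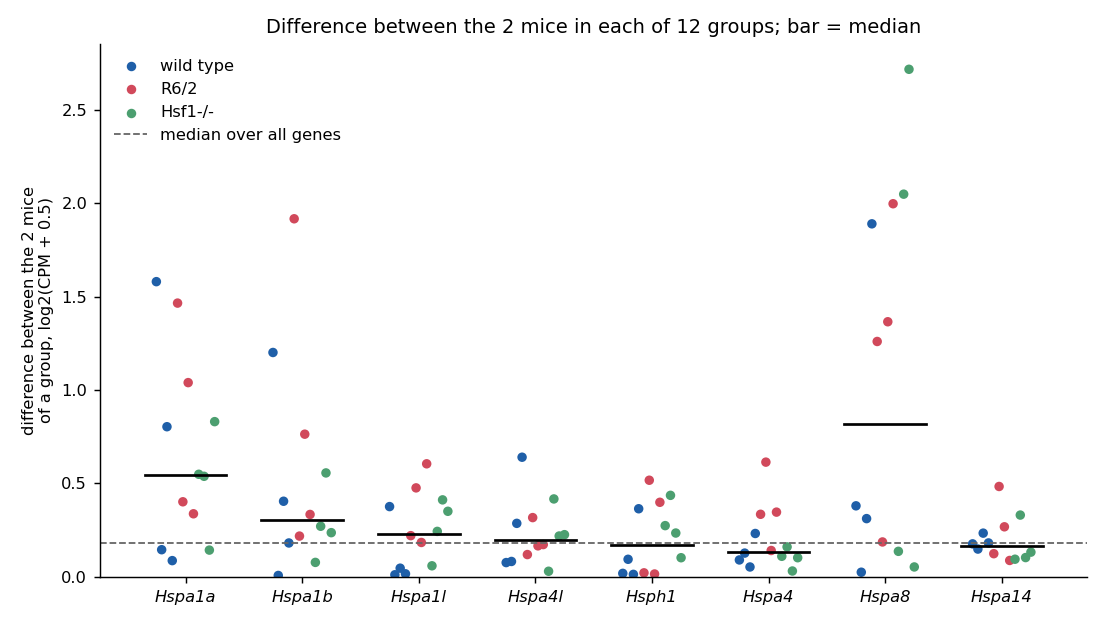
Difference between the 2 mice of a group in log2(CPM + 0.5), 1 point for each of 12 groups, with a bar at the median of a gene and a dashed line at 0.18, the median over all genes. The points of Hspa8 reach 2.72, and those of Hspa1a and Hspa1b reach 1.58 and 1.92 in groups where these genes are low.

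Hspa14 (Entrez Gene 50497, chromosome 2, 3406122 to 3430086, minus strand, 14 exons), a ribosome-associated member, varied least. It was between 12.1 and 21.6 CPM in all 24 libraries, lowest in HSP990-treated wild type mice (12.1 and 13.8 CPM) and highest in R6/2 HS replicate 1. Its 6 treatment differences lay between -0.30 and -0.01 on the log2 scale and none passed, with intervals of -0.47 to 0.26 for wild type HS and -0.66 to 0.07 for wild type HSP990. Neighbours in the order of its group levels overlapped throughout.

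Counted over the family, 5 of the 8 genes rose after HS in wild type mice (Hspa1a, Hspa1b, Hspa1l, Hspa4l and Hsph1) and none fell, against 2.06% of the 13754 genes tested that changed. The median log2 fold change was 1.88 over the 8 genes and -0.01 over all genes. After HS 2 of 8 rose in R6/2 mice (Hspa1a and Hspa1b), against 0.0436% of all genes, 6 in number. Of the 8 genes 0 passed after HS in Hsf1-/- mice, against 0.00727% of all genes, and none was below 0.05 before adjustment, against 8.80% of all genes, and DESeq2 called none. After HSP990 the same 5 genes that rose after HS in wild type mice rose in wild type mice (5 of 8, against 1.85% of all genes) and in R6/2 mice (5 of 8, against 1.43%). Likewise 0 of 8 passed after HSP990 in Hsf1-/- mice, against 0.218% of all genes, with none below 0.05 before adjustment, against 9.48%, and none with DESeq2.

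**Figure D3:**
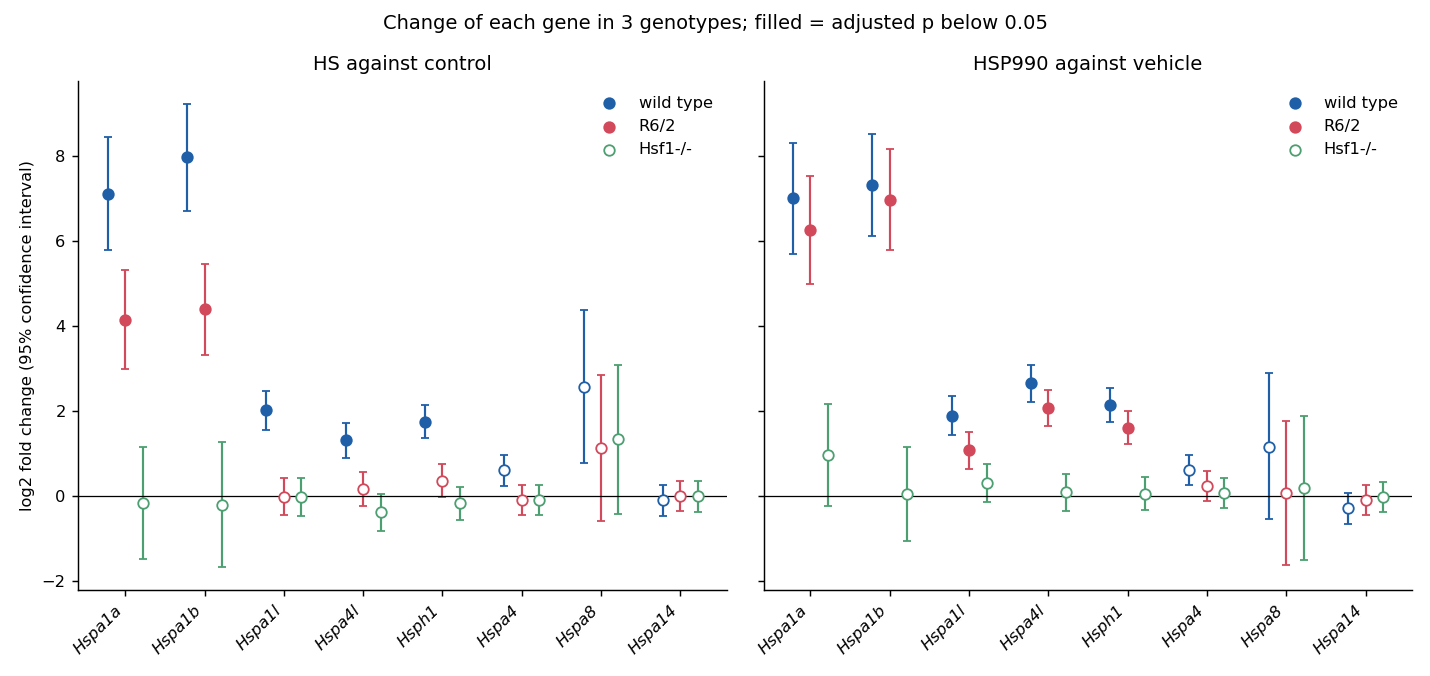
Log2 fold change of each gene after HS against control (left) and HSP990 against vehicle (right) in the 3 genotypes, with 95% confidence intervals from edgeR's fit and filled points where the adjusted p was below 0.05. After HS the R6/2 points lie below the wild type points for all genes but Hspa14. After HSP990 the intervals of the 2 genotypes overlap for every gene, which is not a test of their difference.

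Tests of the difference between genotypes gave the following counts. For HS, R6/2 minus wild type, 1 of 8 genes passed (Hspa1l), against 0.0727% of all genes, and 6 of 8 were below 0.05 before adjustment, against 4.86% of all genes. For HSP990, R6/2 minus wild type, 0 of 8 passed, as did 0% of all genes, with 1 of 8 (Hspa1l) below 0.05 before adjustment against 7.13%, and none with DESeq2. For Hsf1-/- minus wild type 5 of 8 were lower after HS, against 0.16% of all genes that changed, and 5 of 8 after HSP990, against 0.422%. For R6/2 minus Hsf1-/- 0 of 8 passed after HS, as did 0% of all genes, with 2 of 8 below 0.05 before adjustment against 3.64%. Those 2 were Hspa1a (log2 4.32, adjusted p = 0.41) and Hspa1b (4.60, 0.41), and DESeq2 called both (adjusted p = 0.0012 and 1.8e-05), as did edgeR for Hspa1b without R6/2 control replicate 1 (log2 6.06, adjusted p = 0.0017). After HSP990 4 of 8 were higher in R6/2 than Hsf1-/- mice, against 0.218% of all genes. The difference between the HS and HSP990 responses passed for 1 of 8 genes in wild type mice, against 2.38% of all genes, and for 2 of 8 in R6/2 mice, against 1.63%. These comparisons share groups and are not independent of each other.

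The untreated state was compared as the mean of the control and the vehicle difference. In Hsf1-/- mice 5 of 8 genes were lower than in wild type mice (Hspa1a, Hspa1b, Hspa1l, Hspa4l and Hsph1), against 0.974% of all genes that changed. Hsph1 was at 53.3 to 65.4 CPM in the 4 untreated Hsf1-/- libraries and 113 to 159 CPM in the 4 wild type ones, and Hspa4l at 5.74 to 7.68 against 12.5 to 16.8 CPM. Neither overlapped, and the log2 differences were -1.19 ± 0.13 (SE, adjusted p = 0.00012) and -1.02 ± 0.144 (adjusted p = 0.0022), which held without each mouse. Hspa1a and Hspa1b were lower by -2.03 ± 0.4 and -1.97 ± 0.391 (adjusted p = 0.025 and 0.026), with ranges over both experiments that overlapped, and Hspa1l by -0.65 ± 0.149 (adjusted p = 0.047). The call of Hspa1a was lost without 6 of the 8 mice (all but wild type control replicate 1 and wild type vehicle replicate 2), that of Hspa1b without 5 (those of Hspa1a other than Hsf1-/- vehicle replicate 1) and that of Hspa1l without each of the 8, with adjusted p up to 0.18, 0.22 and 0.23. Within the HS experiment 1 of 8 genes was lower (Hsph1, log2 -0.93, adjusted p = 0.02), against 1.93% of all genes, a call lost without each of the 4 mice. Within the HSP990 experiment 2 of 8 were (Hspa4l -1.28 and Hsph1 -1.45, adjusted p = 0.018 and 0.0017), against 0.0872% of all genes. There the call of Hsph1 was lost without Hsf1-/- vehicle replicate 1 (adjusted p = 0.057), and that of Hspa4l without either Hsf1-/- vehicle mouse (0.17 and 0.097) or wild type vehicle replicate 1 (0.18). DESeq2 also called Hspa4l within the HS experiment (adjusted p = 0.023) and Hspa1a, Hspa1b and Hspa1l within the HSP990 experiment (0.0022, 0.0011 and 0.0094).

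In untreated R6/2 mice 1 of 8 genes differed from wild type, Hspa1l, which was lower by -0.59 ± 0.147 (SE) on the log2 scale (adjusted p = 0.0061). At the same time 30.5% of all genes differed, so this share is below the background. Hspa1l was at 20.3 to 29.8 CPM in the 4 untreated R6/2 mice and 29.7 to 40.3 CPM in the 4 wild type ones, which met at their ends. Without R6/2 control replicate 1 Hspa1a and Hspa1b were also lower, by -1.15 and -1.13 (adjusted p = 0.037 and 0.0078). Within the HS experiment 0 of 8 genes passed, against 12.4% of all genes, with none below 0.05 before adjustment, against 26.7%, and none with DESeq2. Without R6/2 control replicate 2, Hspa1b was higher by 1.39 (adjusted p = 0.026). Within the HSP990 experiment 2 of 8 were lower, against 19.2% of all genes, namely Hspa1b (-1.49, adjusted p = 0.031) and Hspa1l (-0.87, adjusted p = 0.0077). The call of Hspa1b was lost without R6/2 vehicle replicate 2 (0.21) or either wild type vehicle mouse (0.16 and 0.06) and with the reads of Hspa1a and Hspa1b summed (0.051), and that of Hspa1l without R6/2 vehicle replicate 2 (0.069). Scaling decided much here: by library size only, the median of all genes moved from 0.05 to 0.66, and the differences of Hspa1l, Hspa4l and Hsph1 turned to 0.02, 0.52 and 0.50. In that scaling 5 of 8 genes passed, as did 64.5% of all genes, so the share of members is that of the background. Within the HS experiment the same scaling called Hspa4 (0.75, adjusted p = 0.0029), Hspa4l (0.64, 0.019), Hspa14 (0.73, 0.0049) and Hsph1 (0.52, 0.037). Within the HSP990 experiment it ended the calls of Hspa1b (-0.81, adjusted p = 0.14) and Hspa1l (-0.20, 0.45) and called Hspa4 (0.72, 0.0026), Hspa14 (0.82, 0.0015) and Hsph1 (0.47, 0.046). The differences called within either experiment lie around 0.66, the median of all genes over both experiments in that scaling. They are therefore not read as a result about the members, and the share of all genes called within each experiment is not given here.

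**Figure D4:**
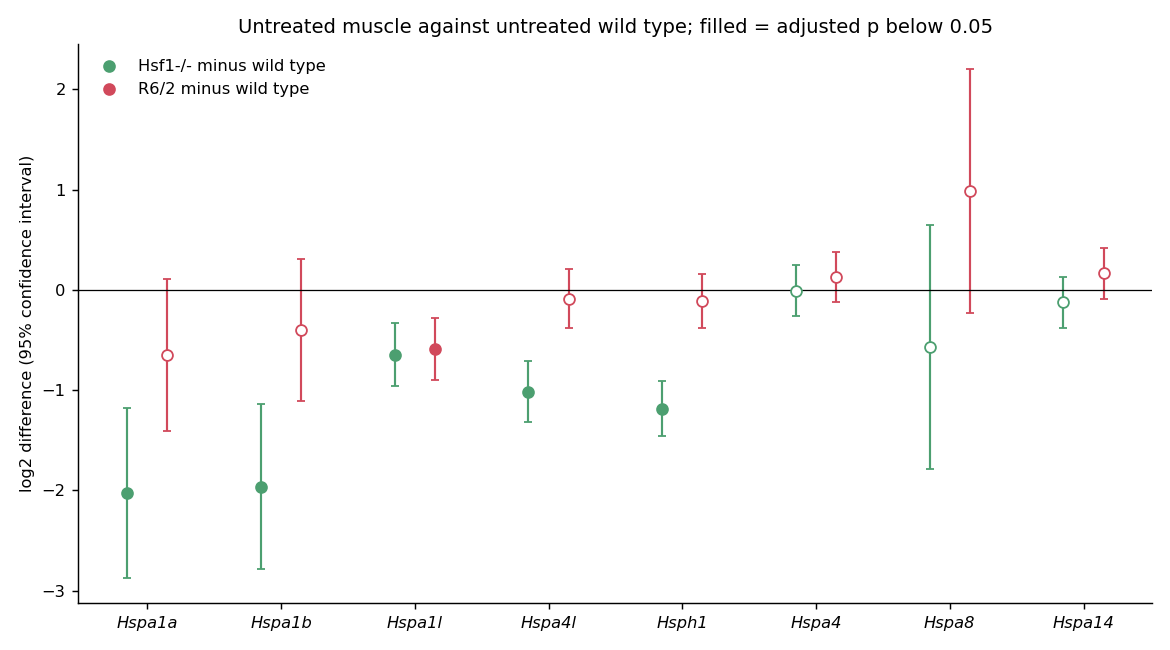
Log2 difference of untreated Hsf1-/- and untreated R6/2 muscle from untreated wild type muscle, as the mean of the control and vehicle differences with 95% confidence intervals, filled where the adjusted p was below 0.05. In Hsf1-/- mice the points of Hspa1a, Hspa1b, Hspa1l, Hspa4l and Hsph1 lie at -2.03 to -0.65, and in R6/2 mice the filled point is Hspa1l.

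To compare genes with each other, CPM was divided by a transcript length in kb and summed over the 8 genes. The length was that of the longest protein-coding transcript of each gene in the GENCODE annotation of mm9. The sum was 108 and 118 CPM per kb in wild type controls, 951 and 992 after HS, 169 and 185 with vehicle and 2411 and 2543 after HSP990. Hspa4 was the most abundant member per kb in both wild type controls (32.2% and 37.5% of the sum), followed by Hsph1 (25.2% and 27.9%), while Hspa1a and Hspa1b together made up 1.68% and 4.71%. In vehicle-treated wild type mice Hspa1a and Hspa1b made up 6.64% and 9.38%. Of all 40-base windows of the transcript 16.6% were found once in the genome for Hspa8, 34.8% for Hspa1a and 31.3% for Hspa1b, against 85.5% for Hspa4 and 83.5% for Hsph1. How reads with several matches were counted is not given in the sources used here, and its part in the order and the shares was not tested. After HS Hspa1a and Hspa1b made up 66.5% and 67.5% of the sum in wild type mice, and after HSP990 80.6% and 84.0%. The sum in R6/2 mice was 131 and 144 CPM per kb in controls, 267 and 269 after HS, 153 and 234 with vehicle and 668 and 946 after HSP990. The inducible genes made up 29.3% and 36.8% of it after HS and 61.3% and 68.8% after HSP990. The sum of Hsf1-/- mice stayed between 84.1 and 138 CPM per kb and the inducible share between 0.842% and 3.70%, and the difference between mice was mostly that of Hspa8 (8.98 to 62.4 CPM per kb).

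The ratio of mean sums, treated to untreated, was 8.63 (SD 0.59) for HS in wild type mice, 1.95 (SD 0.13) in R6/2 and 1.09 (SD 0.25) in Hsf1-/- mice, and 14.0 (SD 1.0), 4.17 (SD 1.6) and 1.09 (SD 0.36) for HSP990. The ratios of wild type and R6/2 mice differed by more than their SD in both experiments, without a test, and those of Hsf1-/- mice lay within 1 SD of 1.

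**Figure D5:**
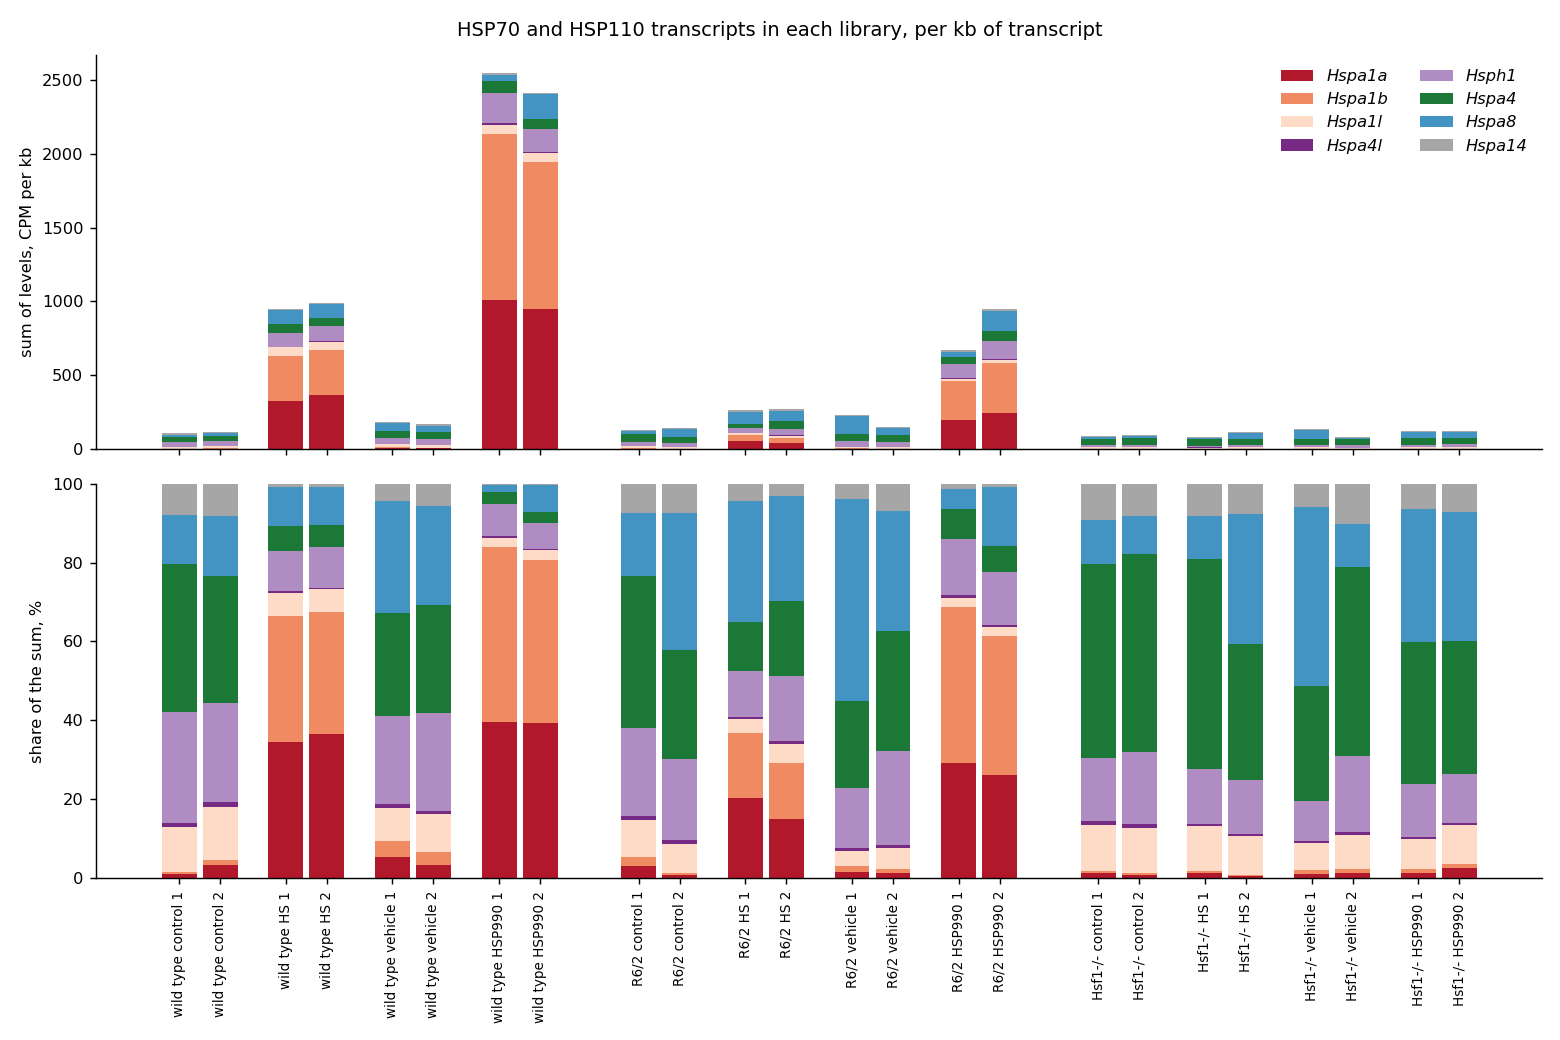
Summed level of the 8 genes in each library in CPM per kb of transcript (top) and the share of each gene in the sum in percent (bottom). The inducible genes Hspa1a and Hspa1b fill 80.6% and 84.0% of the bars of HSP990-treated wild type mice and at most 3.70% in Hsf1-/- mice, where Hspa4 and Hspa8 hold most of the sum.

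The levels of the members moved together over the 24 libraries to different degrees, given here as a description of libraries that share treatments. Pearson's r of log2(CPM + 0.5) was 0.996 for Hspa1a and Hspa1b, 0.982 for Hspa4l and Hsph1, and 0.934 for Hspa1b and Hsph1. It was 0.845 for Hspa1a and Hspa1l, 0.648 for Hspa1a and Hspa8 and -0.138 for Hspa1a and Hspa14. The 5 genes outside the family nearest to Hspa1b were Hsp90aa1 (r = 0.973), Hspb1, Dnaja1, Stip1 and Bag3 (0.959), all chaperones or co-chaperones. Those nearest to Hsph1 were Stip1 (0.985), Ahsa2, P4ha1, Dnaja1 and Ahsa1 (0.947), and those nearest to Hspa4l were Ahsa2 (0.980), Stip1, P4ha1, Dedd2 and Dnaja1 (0.948). Stip1 links HSP70 to HSP90, and Ahsa1 stimulates the ATPase of HSP90. Hspa4 was nearest to Herc4 (0.925), Cacybp, Ubxn4, Dnajb4 and Dennd5b (0.863), Hspa14 to Neurl4 (0.867), Zbtb22, Vps51, Scap and Man2c1 (0.821), and Hspa8 to Aldh1b1 (0.742), Nxpe4, Aldh1a2, Trim34a and Myo7a (0.701). Hspa1l, for which the naming of neighbours was added after the values had been seen, was nearest to Hspd1 (0.968) and Hspe1 (0.941), which encode the mitochondrial chaperonin and its partner.

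The partners of HSP70 were followed as a list of 18 genes, 9 J-domain proteins, 6 nucleotide exchange factors and 3 adaptors or ligases. In wild type mice 6 of 18 rose after HS and none fell (median log2 0.43), against 2.06% of all genes that changed, led by the J-domain proteins Dnaja1 (2.78 ± 0.188 SE, adjusted p = 4e-07), Dnaja4 (2.53 ± 0.313, adjusted p = 0.00029) and Dnajb1 (2.18 ± 0.312, adjusted p = 0.0011) and by Bag3 (2.19 ± 0.177, adjusted p = 2.7e-06), an exchange factor that links HSP70 to autophagy in muscle. After HSP990 7 of 18 rose in wild type mice (median 0.43), against 1.85% of all genes, led by Dnajb1 (4.92 ± 0.345, adjusted p = 2.7e-07), Dnaja1 (3.75 ± 0.196, adjusted p = 9.8e-09), Bag3 (2.38 ± 0.178, adjusted p = 6e-07) and Dnaja4 (1.98 ± 0.307, adjusted p = 0.0016). In R6/2 mice 0 of 18 passed after HS (median 0.00), against 0.0436% of all genes, where Dnaja1 differed by 0.99 (adjusted p = 0.053). There 3 of the 18 were below 0.05 before adjustment, against 8.12% of all genes. DESeq2 called 1 of the 18 and 127 genes in all. Without R6/2 HS replicate 2, which leaves 1 mouse in that group, the calls among the 18 differed from those of the full fit. After HSP990 4 of 18 rose in R6/2 mice (median 0.32), against 1.43% of all genes: Dnajb1 (3.52, adjusted p = 1.5e-05), Dnaja1 (2.51, adjusted p = 1.3e-06), Bag3 (1.32, adjusted p = 0.00043) and Stip1 (1.21, adjusted p = 0.00011). A fit of the compared groups alone called 1 of the 18 and 8 genes in all. None of the 18 passed edgeR's test after either treatment in Hsf1-/- mice (medians 0.05 and 0.07), against 0.00727% of all genes for HS and 0.218% for HSP990, with 0 below 0.05 before adjustment and 0 with DESeq2.

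The response of several partners differed between genotypes. For HS, R6/2 minus wild type, 4 of 18 were lower, against 0.0727% of all genes that changed: Dnaja4 (-2.74, adjusted p = 0.012), Dnajb1 (-2.55, adjusted p = 0.027), Dnaja1 (-1.79, adjusted p = 0.0094) and Bag3 (-1.70, adjusted p = 0.0094). All 4 calls were lost without R6/2 HS replicate 1, R6/2 control replicate 1 or wild type control replicate 1, in a fit of the compared groups alone and with the replicate block. The count was lower without wild type control replicate 2 and higher without R6/2 HS replicate 2. For HSP990, R6/2 minus wild type, 0 of 18 passed edgeR's test, as did 0% of all genes, while 8 were below 0.05 before adjustment, against 7.13% of all genes. DESeq2 called 4 of the 18, all lower, and 49 genes in all. For Hsf1-/- minus wild type 4 of 18 were lower after HS, against 0.16% of all genes that changed, and 5 after HSP990, against 0.422%, the largest being Dnaja1 after HS (-3.08, adjusted p = 5.2e-05) and Dnajb1 after HSP990 (-5.03, adjusted p = 1.1e-05). Untreated Hsf1-/- mice had lower Dnaja1 (-0.77, adjusted p = 0.014), Stip1 (-0.59, adjusted p = 0.0053) and St13 (-0.48, adjusted p = 0.04), 3 of 18 against 0.974% of all genes. The count fell to 1 or 2 without any 1 of the 8 mice and to 0 with the replicate block. The 6 HSP70 genes of other compartments or of the distant Hspa12 branch, Hspa5, Hspa9, Hspa13, Hyou1, Hspa12a and Hspa12b, gave 0 calls by edgeR's test in the 6 treatment comparisons. Before adjustment 1 of the 6 was below 0.05 after HS in wild type mice, 2 were after HS in R6/2 mice and 0 in the other comparisons. DESeq2 called 1 of the 6, after HS in R6/2 mice, where it called 127 genes in all. In untreated R6/2 mice 2 of these 6 were lower, the mitochondrial Hspa9 (-0.86, adjusted p = 1e-05) and Hspa5 of the endoplasmic reticulum (-0.36, adjusted p = 0.016), a share near the 30.5% of all genes that differed. By library size only, 1 of the 6 was lower and 3 were higher. In that scaling 8876 of the 13754 genes tested were called, so this share is near the background.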

How the data were processed

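RNA was sequenced from quadriceps femoris muscle of 24 mice, 2 in each of 12 groups of genotype and treatment. The labels describe poly(A) selection and strand-specific paired-end libraries, and the study's methods give reads of 40 bases. The authors deposited raw read counts per Entrez gene, not normalised, and per the labels Bowtie, DESeq2 and the build mm9 were used. The counting program and annotation are not given in the sources used here. Columns were assigned to mice by the sample names in the labels, with 24 columns used and 0 left over. Symbols were found for 18594 of 18669 gene identifiers.

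A gene was kept where 10 or more libraries held 2 or more counts of it, which left 13754. TMM scaling and the quasi-likelihood test of edgeR 4.0.16 (R 4.3.3, limma 3.58.1) were used in 1 fit of 12 group means to all 24 libraries, with 12 residual degrees of freedom (16.6 with those borrowed across genes) and Benjamini-Hochberg adjustment over all genes. Standard errors and 95% intervals come from that fit. Differences between responses were tested as interactions. DESeq2 1.42.0, other scalings and filters, a fit of the compared groups alone, the replicate number as a block, the summed reads of Hspa1a and Hspa1b and leaving out each mouse were alternatives. Between the mice of a group counts differed by far more than sampling noise, the chi-square divided by its degrees of freedom being 19.4 to 110.2, so no library was counted as deposited in duplicate. Totals of 22450000 to 46600000 counts limit the precision of genes near 1 CPM. On counts simulated for wild type HS against control over 13754 genes, 177 genes were called when 200 had been changed, 4 of them unchanged. For the difference of the HS responses of Hsf1-/- and wild type mice over 13754 genes, 161 genes were called, 13 of them unchanged. Of 50 genes changed by 1 on the log2 scale 31 were called, of 50 changed by 2 43 were, of 50 changed by 3 50 were, and of 50 changed by 6 49 were.

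Values of single mice and correlations used log2(CPM + 0.5) and genes with a mean of at least 1 CPM. Windows of 40 bases were matched to NCBIM37, the assembly of mm9, and promoters are from RefSeq (GRCm38.p6). The genes named were the members, Hsf1, the 5 genes outside the family with the highest Pearson r for Hspa1b, Hspa4, Hspa4l, Hspa8, Hspa14 and Hsph1, and up to 4 called partners with the largest change in each treatment comparison. Members and lists were chosen with earlier results of these data known.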

Additional observations from a re-analysis of the deposited data

Results flagged for a closer look

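A response that differed between genotypes by the interaction test of edgeR, with Benjamini-Hochberg adjustment over all genes, was found for 15 pairs of gene and comparison. For HS, R6/2 minus wild type, it was Hspa1l (log2 -2.03, adjusted p = 0.0094). For HS, Hsf1-/- minus wild type, they were Hspa1a (-7.28), Hspa1b (-8.18), Hspa1l (-2.05), Hspa4l (-1.69) and Hsph1 (-1.92). For HSP990, Hsf1-/- minus wild type, they were Hspa1a (-6.04), Hspa1b (-7.27), Hspa1l (-1.58), Hspa4l (-2.57) and Hsph1 (-2.08). For HSP990, R6/2 minus Hsf1-/-, they were Hspa1a (5.30), Hspa1b (6.93), Hspa4l (1.99) and Hsph1 (1.55). Groups of 2 mice are too small for a test of single outlying mice.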

How the results depend on the processing

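The calls of Hspa1a, Hspa1b, Hspa4l and Hsph1 after HSP990 in wild type mice, and 0 calls in Hsf1-/- mice after either treatment, held under every alternative run. Counts of called members that moved by more than 1.5 times are given after examples of smaller moves. Smaller moves included wild type HS with 7 in place of 5 (DESeq2, and the compared groups alone), wild type HSP990 with 6 in place of 5 (DESeq2), R6/2 HSP990 with 4 in place of 5 (block) and HS minus HSP990 in R6/2 mice with 3 in place of 2 (library size only, and no filter). For the HS response of R6/2 minus wild type mice, 1 as reported, the count was 4 with DESeq2, 3 without a filter, and 0 with the compared groups alone, with the replicate block or with crossed numbers. DESeq2 also gave 2 in place of 0 for the HS response of R6/2 minus Hsf1-/- mice and 4 in place of 2 for HS minus HSP990 in R6/2 mice. With the compared groups alone the count was 3 in place of 5 for R6/2 HSP990, 1 in place of 2 for HS minus HSP990 in R6/2 and 3 in place of 5 for untreated Hsf1-/- mice. With the block it was 3 in place of 5 both for the HS response of Hsf1-/- minus wild type and for untreated Hsf1-/- mice. Scaling by library size only gave 5 in place of 1 for untreated R6/2 mice, where 64.5% of all genes were called. It reversed the differences of Hspa1l (0.0205), Hspa4l (0.521) and Hsph1 (0.499) in untreated R6/2 mice and of Hsph1 within the HS (0.523) and HSP990 (0.474) experiments. In the same scaling, which differs from the main one only in leaving out the TMM factors, 2 ratios of summed levels moved by more than their SD. They were 7.85 in place of 8.63 (wild type HS) and 1.81 in place of 1.95 (R6/2 HS). The cause of the moved counts of calls was not tested.

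Leaving out 1 mouse gave 4 to 5 calls for wild type HS, 1 to 2 for R6/2 HS, 0 to 0 for Hsf1-/- HS, 5 to 5 for wild type HSP990, 4 to 5 for R6/2 HSP990 and 0 to 0 for Hsf1-/- HSP990. For response differences it gave 0 to 3 (HS) and 0 to 0 (HSP990) for R6/2 minus wild type, 3 to 5 and 4 to 5 for Hsf1-/- minus wild type, and 0 to 1 and 3 to 4 for R6/2 minus Hsf1-/-. It gave 0 to 1 (wild type) and 1 to 3 (R6/2) for HS minus HSP990, and 1 to 3 (R6/2) and 2 to 4 (Hsf1-/-) for untreated mice. Same-numbered mice did not deviate together in every pair (r -0.2 to 0.24), so the numbers were not taken as pairs. Crossing the numbers was chosen after seeing the data. With Spearman's rho, 5 of the 5 nearest genes of Hspa1a, 4 of Hspa1b, 3 of Hsph1, Hspa4l and Hspa4, and 1 of Hspa1l, Hspa8 and Hspa14 were again among the nearest.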
